A study of Mus musculus with 9 samples.

Results

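Gene expression in the distal small intestine was compared between 6 arrays taken as one side, 3 labelled BP and 3 labelled wild type, and 3 Rag1 arrays. The genes described are those for which every one of the 6 arrays lay beyond every Rag1 array, above it or below it, so that BP and wild type stood on the same side of Rag1. Of 27022 probe sets tested, 680 (2.52%) lay wholly above Rag1 and 965 (3.57%) wholly below. Over all 45037 non-control probe sets, dim ones included, 931 lay above and 1141 below. Of the tested ones, 118 also passed the test of the mean of the BP and wild type groups against Rag1, at an adjusted p under 0.05. They are called the shared probe sets here: 49 were higher than Rag1 (0.181% of all tested) and 69 were lower (0.255%).

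The arrays, Affymetrix chips on which each gene is read by one or more probe sets, measured messenger RNA from mice in which Bacteroides thetaiotaomicron, a common gut commensal, had lived for 10 days. Each small intestine had been cut into 16 equal pieces, and whole pieces 10, 11, 12 and 14 were pooled, so a sample holds epithelium, immune cells, muscle and nerve together. The wild type arrays are labelled B6, the C57BL/6 strain; the Rag1 and BP arrays both carry the source label Rag 1, and the labels do not say what BP stands for. From outside the labels, the study is known to have used Rag1-deficient mice with and without implanted hybridoma cells that secrete an IgA antibody, which the labels do not tie to BP. The labels give no age or sex, and they do not say whether the arrays of a group come from separate mice. The p-values therefore measure the spread between these samples, which may be technical.

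Rag1 encodes part of the recombinase that assembles antibody and T cell receptor genes, so mice without it have no mature B or T cells and make no IgA. The epithelium of the small intestine meets bacteria with innate defences: the lectins Reg3g and Reg3b, phospholipases, peroxide-generating oxidases, and signalling through NF-kB and type I interferon. The same cells absorb lipids, oxidize them, and carry enzymes that handle retinol, steroids and foreign compounds.

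Some arrays stood apart before any gene was compared. The ratio of the 3-prime to the 5-prime actin control, which rises as RNA is degraded, ran from 1.53 to 1.77 for Rag1. It was 14.2 for BP replicate 1, 2.43 for replicate 2 and 20.2 for replicate 3, and 3.25, 1.76 and 4.17 for the corresponding wild type replicates. The BP arrays also varied more among themselves, with a median standard deviation of 0.44 per probe set against 0.21 for Rag1 and 0.23 for wild type. Xist, the RNA of the inactive X chromosome of female cells, had deposited intensities of 5.84 to 24.1 on Rag1 arrays, 36, 624 and 1735 on BP arrays and 1086 to 1539 on wild type arrays, so 5 of the 6 arrays were high and BP replicate 1 was not. The epithelial markers Vil1, Cdh17, Fabp6, Fabp2 and Apoa4 were in the 97.6th percentile of intensity or above on every array, while the ileal bile acid transporter Slc10a2 read 4.68 to 6.74 on the normalised log2 scale over the 9 arrays. The Rag1 probe set itself was too dim to be tested, and on it the 6 arrays did not lie beyond Rag1.

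The 49 higher probe sets had a median log2 change of 1.34 (range 0.68 to 4.47), and the 69 lower ones a median of -1.29 (range -0.63 to -2.84). All values below are quantile-normalized log2(intensity + 16), and each change is the mean of the BP and wild type group means minus the Rag1 mean, with its standard error and limma's adjusted p. Counted by gene, with each gene read from its brightest tested probe set, 33 of 13570 genes (0.243%) were higher and 32 (0.236%) lower under both conditions. Wholly above Rag1 were 383 genes (2.82%) and wholly below 483 (3.56%), and the gene list counts below are to be read beside these shares. The distance between the 6 arrays and the Rag1 arrays exceeded 1 log2 unit for 7 higher and 7 lower probe sets. The Rag1 arrays are shared by both groups' comparisons, so a gene's BP and wild type changes are given side by side and not as 2 independent findings. Taken alone, BP was higher than Rag1 on 1.1% and lower on 2.7% of tested probe sets by the same test, and wild type was higher on 0.259% and lower on 0.0703%.

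**Figure D1:**
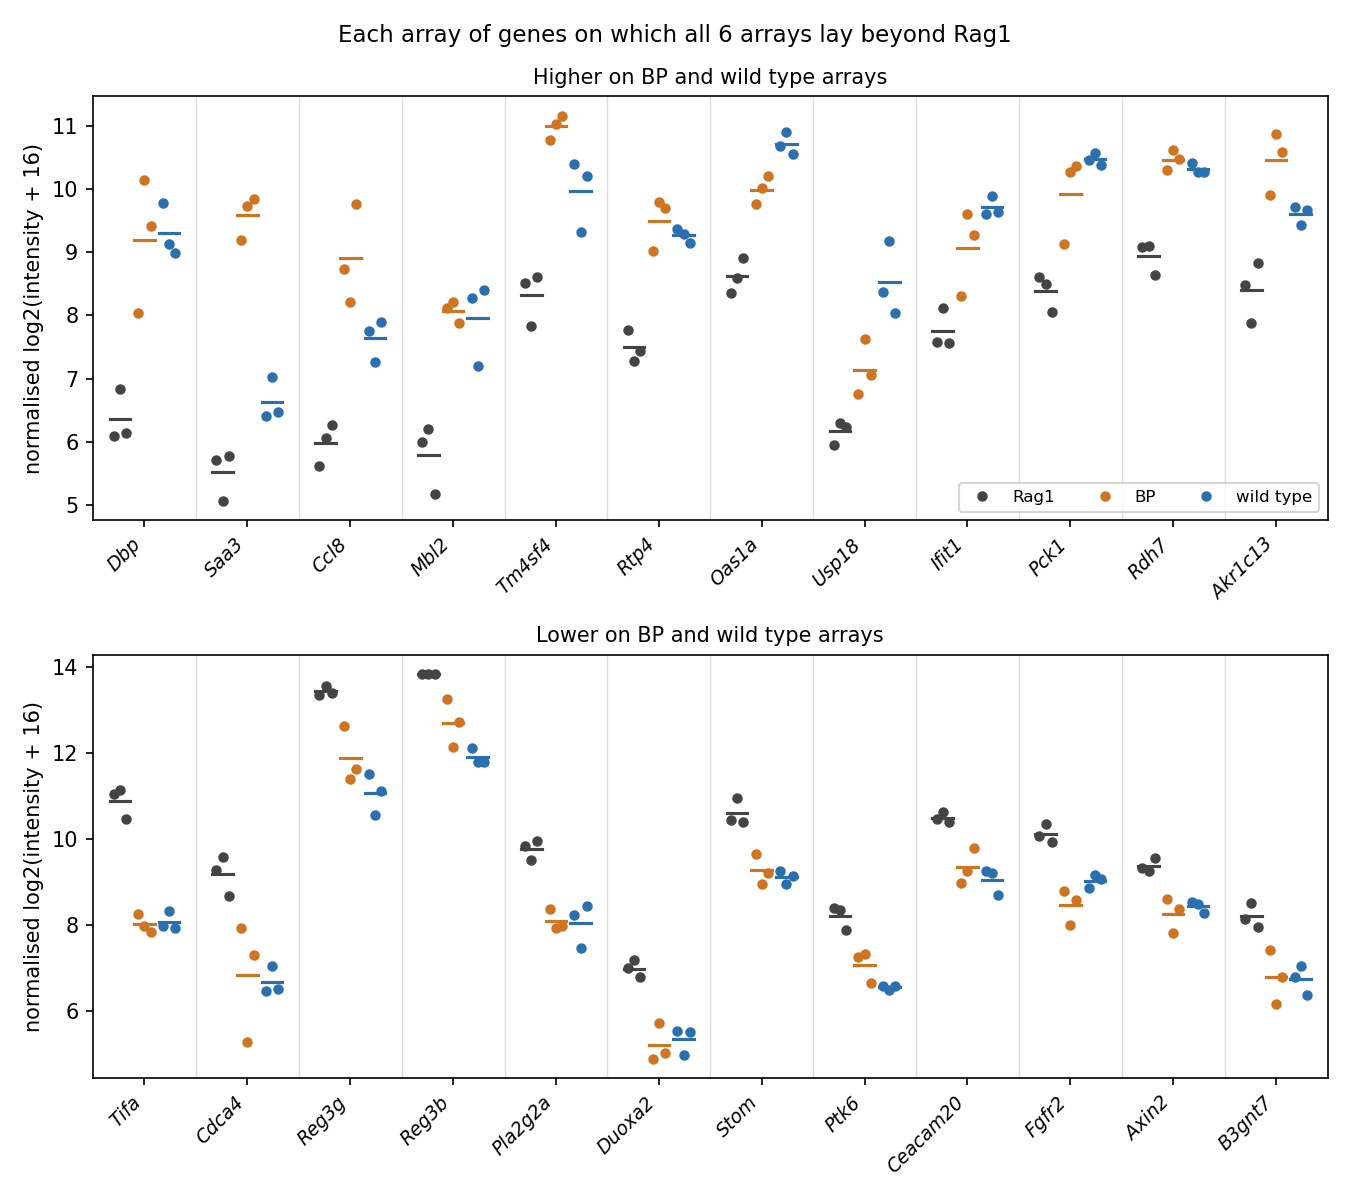
Normalised log2(intensity + 16) on each array for 12 higher and 12 lower genes, with a line at each group mean. Every BP and wild type point lies beyond every Rag1 point of the same gene, and the distance is widest for Tifa.

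Tifa was the gene that separated the arrays most. Its protein couples the sensing of a bacterial sugar metabolite to TRAF6 and NF-kB. Tifa read 11.03, 11.14 and 10.47 on the Rag1 arrays, 8.25, 7.97 and 7.83 on BP and 7.97, 8.31 and 7.92 on wild type. All 6 arrays lay at least 2.16 below the lowest Rag1 array, and the BP and wild type values overlapped one another. The change was -2.84 ± 0.20 (SE, n = 3, 3 and 3 arrays; adjusted p = 0.00025), a 7.14-fold lower signal, with BP at -2.86 and wild type at -2.81. Of 39 tested genes of innate signalling and NF-kB feedback, Tifa alone met both conditions. The list leaned the same way as a description: 5 of 39 lay wholly below Rag1 and 0 above (over all genes, 3.56% and 2.82%). In it 29 changes were negative and 10 positive, and the median was -0.19, against -0.00066 over all 13570 genes. Nfkb2, an NF-kB subunit that is also a target of the pathway, was among the 5, at -0.98 ± 0.33 (adjusted p = 0.218).

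The secreted antibacterial lectins were lower as well. Reg3g, which binds the peptidoglycan of Gram-positive bacteria, read 13.33, 13.56 and 13.39 on Rag1, 12.62, 11.39 and 11.62 on BP and 11.50, 10.54 and 11.12 on wild type. BP replicate 1 was the array closest to Rag1, and the change was -1.96 ± 0.26 (adjusted p = 0.00993), -1.55 in BP and -2.37 in wild type. Its neighbour and relative Reg3b read 13.83 on every Rag1 array, where it held the same rank among the brightest probe sets, then 13.25, 12.13 and 12.71 on BP and 12.10, 11.79 and 11.79 on wild type. Reg3b fell by 1.53 ± 0.19 on the log2 scale (adjusted p = 0.00707). Its dimmer probe set also passed the test (-1.10 ± 0.14, adjusted p = 0.00716) but was not wholly below Rag1. For both lectins all 6 arrays were below Rag1, and the direct comparison of wild type with BP did not pass the test (-0.82 ± 0.30, adjusted p = 0.222 for Reg3g, and -0.80 ± 0.22, adjusted p = 0.13 for Reg3b).

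Pla2g2a, a phospholipase gene of Paneth cells, read 9.83, 9.50 and 9.94 on Rag1, 8.37, 7.93 and 7.96 on BP and 8.23, 7.47 and 8.43 on wild type. The arrays read its RNA and do not show whether a working enzyme was made. The highest of the 6 arrays was 1.07 below the lowest Rag1 array, and the groups BP and wild type overlapped (change -1.69 ± 0.23, adjusted p = 0.0109). Across 18 tested antimicrobial genes, 3 met both conditions downward (Reg3g, Reg3b and Pla2g2a) and 1 upward (Saa3), against 0.236% and 0.243% over all genes. In this list 15 changes were negative, and the median was -0.33. Of 10 tested Paneth cell genes Pla2g2a was the 1 that met both conditions, and 3 lay wholly below Rag1 (over all genes, 3.56%). The Paneth list median by array ran from -0.27 to 0.01 on BP arrays and from -1.69 on wild type replicate 2 to -0.11 on replicate 3.

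The oxidant-producing arm of epithelial defence was represented by Duoxa2, the maturation factor that carries the peroxide-generating oxidase Duox2 to the cell surface. Duoxa2 read 6.99, 7.17 and 6.79 on Rag1, 4.87, 5.72 and 5.02 on BP and 5.52, 4.97 and 5.50 on wild type. Every one of the 6 arrays was more than 1 log2 unit below Rag1, and the change was -1.71 ± 0.25 (adjusted p = 0.0153). Nos2, which makes nitric oxide in inflamed epithelium, was below the intensity filter. It read 6.1, 5.91 and 5.83 on Rag1 and 4.55 to 5.20 on the 6 arrays, all below Rag1, and missed the threshold when no filter was applied (-1.15, adjusted p = 0.0614). Gpx2, the glutathione peroxidase of the gut epithelium, also lay wholly below Rag1 without passing (-0.49 ± 0.11, adjusted p = 0.0691). Of 31 tested nitric oxide and peroxide genes, 4 lay wholly below Rag1 and 0 above (over all genes, 3.56% and 2.82%), and the list median was -0.07.

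Several interferon-stimulated genes were higher than in Rag1. Oas1a, which senses double-stranded RNA, read 8.36, 8.60 and 8.91 on Rag1, 9.76, 10.02 and 10.21 on BP and 10.68, 10.91 and 10.57 on wild type. The 3 groups did not overlap at all, with BP between Rag1 and wild type, and the change was 1.73 ± 0.17 (adjusted p = 0.00122). Rtp4, a transporter chaperone induced by interferon, read 7.77, 7.29 and 7.44 on Rag1, 9.02, 9.80 and 9.70 on BP and 9.36, 9.29 and 9.15 on wild type (change 1.89 ± 0.21, adjusted p = 0.0029). BP and wild type overlapped for Rtp4 and stood 1.25 clear of Rag1.

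Usp18, the protease that removes the ubiquitin-like protein Isg15 and damps interferon receptor signalling, read 5.95, 6.3 and 6.23 on Rag1, 6.75, 7.62 and 7.05 on BP and 8.37, 9.18 and 8.04 on wild type (change 1.68 ± 0.28, adjusted p = 0.0238). It was highest in wild type, at 2.37 above Rag1 against 0.98 in BP, although the wild type minus BP difference of 1.39 ± 0.32 did not pass (adjusted p = 0.0863). Ifit1, which binds foreign RNA caps, read 7.58, 8.12 and 7.57 on Rag1, 8.31, 9.60 and 9.28 on BP and 9.61, 9.90 and 9.64 on wild type. BP replicate 1 was again the array nearest to Rag1, by 0.18, and the change was 1.63 ± 0.26 (adjusted p = 0.0216). Irf7, the transcription factor that amplifies type I interferon, read 9.34, 9.50 and 9.53 on Rag1 against 10.29 to 10.63 on the 6 arrays (1.00 ± 0.13, adjusted p = 0.00993). Oasl2 rose by 1.49 ± 0.20 (adjusted p = 0.0109).

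Of 44 tested interferon response genes, these 6 met both conditions upward (over all genes, 0.243%). Wholly above Rag1 were 10 and wholly below 0 (over all genes, 2.82% and 3.56%), with 35 positive and 9 negative changes. The list median was 0.54 for the combined change, but 0.08 for BP and 0.85 for wild type. Lymphocyte genes differed between the same arrays. The median of 12 tested T cell genes, relative to Rag1, was 0.64 to 0.80 on the wild type arrays and -0.23 to 0.05 on the BP arrays, with none of the 12 wholly above Rag1, and their part in the interferon result was not tested. In whole tissue, fewer cells of a type and less RNA per cell cannot be told apart.

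The 250 bases before the start of 2 interferon genes and of both lectins are shown because these genes moved together within each pair and in opposite directions between the pairs. They come from RefSeq (assembly GRCm38.p6), are written 5′ to 3′ on the strand of the gene, and carry matched motifs in capitals: the core of the interferon-stimulated response element (GAAA and GAAA with any 2 bases between) and the STAT site TTCNNNGAA, each searched on both strands. Ifit1 lies on the plus strand at chr19:34640639-34640888, Oas1a on the minus strand at chr5:120907526-120907775, Reg3b on the plus strand at chr6:78370635-78370884, and Reg3g on the minus strand at chr6:78468875-78469124.
Ifit1: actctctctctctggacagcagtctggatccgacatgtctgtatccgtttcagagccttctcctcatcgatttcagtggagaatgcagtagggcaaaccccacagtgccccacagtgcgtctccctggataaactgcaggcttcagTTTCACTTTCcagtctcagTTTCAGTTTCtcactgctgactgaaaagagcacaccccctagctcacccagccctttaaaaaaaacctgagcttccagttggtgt
Oas1a: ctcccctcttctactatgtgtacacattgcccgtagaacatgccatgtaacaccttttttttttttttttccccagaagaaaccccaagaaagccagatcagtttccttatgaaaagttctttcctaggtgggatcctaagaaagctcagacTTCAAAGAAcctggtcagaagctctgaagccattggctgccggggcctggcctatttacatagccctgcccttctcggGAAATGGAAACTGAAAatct
Reg3b: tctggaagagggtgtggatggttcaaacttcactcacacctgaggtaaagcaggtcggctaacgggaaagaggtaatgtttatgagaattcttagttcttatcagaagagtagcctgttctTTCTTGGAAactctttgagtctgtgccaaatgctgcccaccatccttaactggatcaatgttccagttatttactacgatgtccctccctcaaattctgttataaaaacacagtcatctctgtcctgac
Reg3g: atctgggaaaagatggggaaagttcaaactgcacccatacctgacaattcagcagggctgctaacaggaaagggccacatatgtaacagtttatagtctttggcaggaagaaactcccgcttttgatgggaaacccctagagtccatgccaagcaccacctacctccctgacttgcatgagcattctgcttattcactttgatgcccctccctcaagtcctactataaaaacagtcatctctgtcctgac

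Ifit1 holds the interferon element core 104 to 95 and again 85 to 76 bases before its start. In Oas1a there are 2 overlapping copies, at 20 to 11 and 14 to 5 bases, beside a STAT site at 98 to 90. Reg3b has a STAT site 129 to 121 bases before its start, and none of the 3 motifs searched is in the Reg3g window. Promoters were found for 34 of the 43 genes with a higher shared probe set and 49 of the 60 with a lower one. The interferon element core was in 4 of 34 higher promoters (11.8%) and 1 of 49 lower ones (2.04%), against 3.46% of all 27025 promoters. The 4 were those of Ifit1, Oas1a, Psmb3 and Saa3. Psmb3 was higher only on a dimmer probe set (1.05, against -0.23 on its brightest). The STAT site was in 3 of 34 (8.82%) and 4 of 49 (8.16%), against 8.13% of all. The NF-kB motif (GGGA and TTCC with any 2 bases between) was in 0 of 34 and 1 of 49 (2.04%), against 1.36%. A match is a run of letters and not a shown binding site.

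Some soluble innate factors were among the largest increases. Saa3, an acute phase protein made by gut epithelium and macrophages, read 5.71, 5.06 and 5.77 on Rag1, 9.19, 9.73 and 9.84 on BP and 6.41, 7.03 and 6.47 on wild type. The 3 groups were separate, with BP far above wild type. The combined change was 2.60 ± 0.25 (adjusted p = 0.00119), 4.07 in BP and 1.12 in wild type, and wild type minus BP was itself -2.95 ± 0.29 (adjusted p = 0.000493). Its relatives Saa1 and Saa2 had the opposite sign, at -2.40 and -2.41 for Saa1 and -1.56 for Saa2. They did not pass when no filter was applied (adjusted p = 0.233, 0.173 and 0.309). For these probe sets BP replicate 1 was above every Rag1 array (9.05, 9.23 and 7.50), and the other 5 arrays were below. Ccl8, a chemokine of tissue macrophages, read 5.61, 6.06 and 6.26 on Rag1, 8.74, 8.22 and 9.77 on BP and 7.75, 7.27 and 7.90 on wild type (2.29 ± 0.31, adjusted p = 0.0109).

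Mbl2, a mannose-binding lectin that starts the complement cascade on microbial sugars, read 5.99, 6.2 and 5.16 on Rag1, 8.12, 8.21 and 7.88 on BP and 8.28, 7.20 and 8.40 on wild type. BP and wild type overlapped, all 6 arrays were at least 1.00 above Rag1, and the change was 2.23 ± 0.30 (adjusted p = 0.0109). Wfdc17, a macrophage-expressed inhibitor-like protein, was mainly a BP change: 6.04, 6.04 and 6.24 on Rag1, 8.07, 7.94 and 8.39 on BP and 6.36, 6.50 and 6.87 on wild type, with wild type minus BP at -1.56 ± 0.23 (adjusted p = 0.0124). Of 22 tested macrophage and dendritic cell genes, Ccl8 and Wfdc17 met both conditions, and the median was 0.06. Wholly above Rag1 were 4 and wholly below 1 (over all genes, 2.82% and 3.56%). In the acute phase and complement list, 2 of 14 (Saa3 and Mbl2) met both conditions and 8 of the 14 changes were negative (median -0.10).

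**Figure D2:**
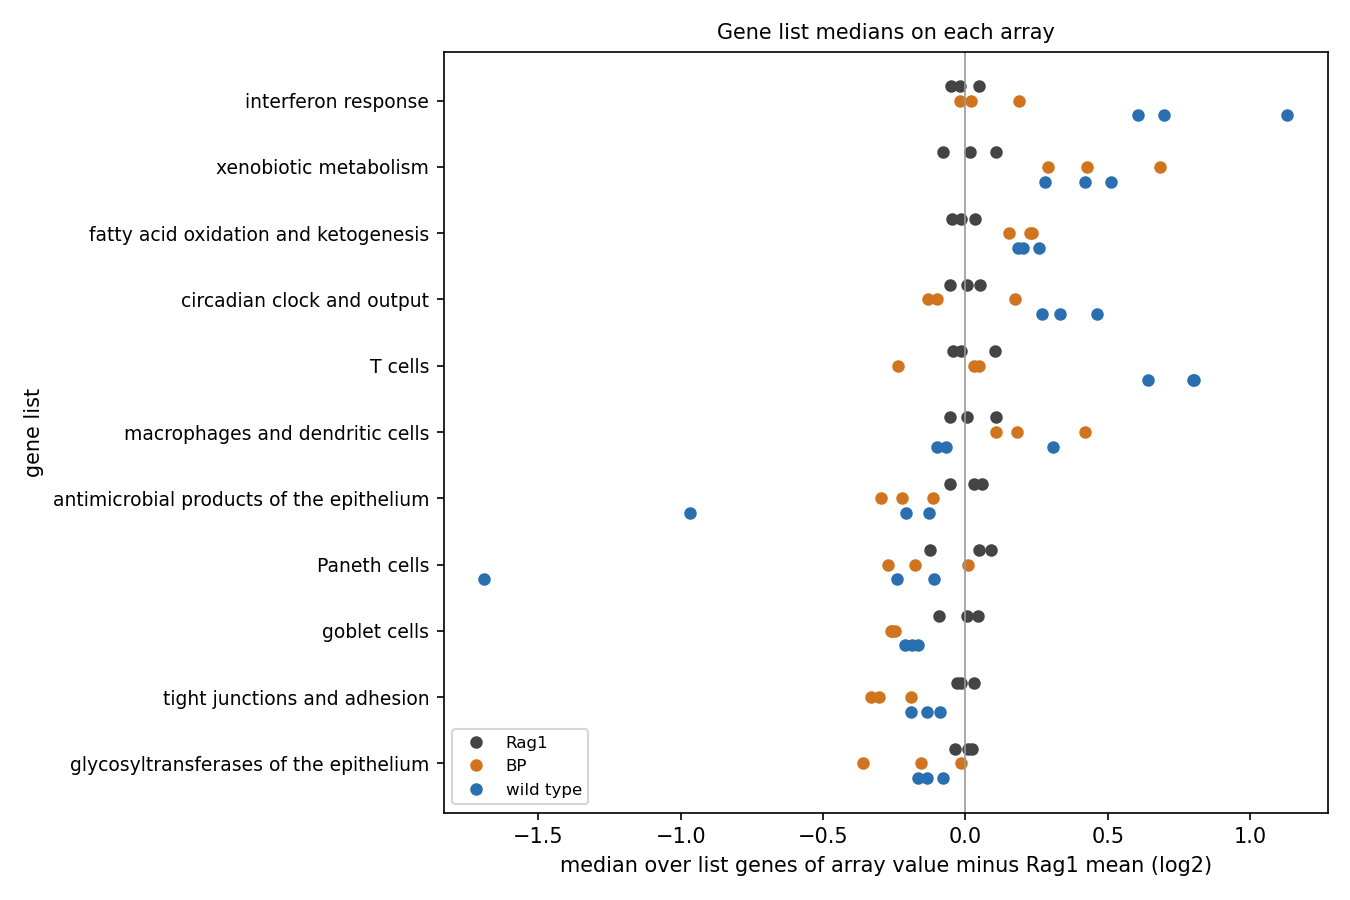
Median over the tested genes of a list of the array value minus the Rag1 mean (log2), 1 point per array, for 11 gene lists. Xenobiotic and fatty acid oxidation medians are above Rag1 on all 6 arrays, interferon and T cell medians are highest on the wild type arrays, and goblet and junction medians are below Rag1 on all 6.

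Enzymes of retinol, steroid and foreign compound metabolism were the list with the most genes wholly above Rag1. Of 51 tested genes, 14 lay wholly above Rag1 and 2 wholly below (over all genes, 2.82% and 3.56%), 43 changes were positive, and the median was 0.35. The median on single arrays was 0.29 to 0.68 for BP and 0.28 to 0.51 for wild type, so all 6 arrays were above the 3 Rag1 arrays (-0.08 to 0.11). Only 4 of the 14 also passed the test upward: Akr1c13 (1.63 ± 0.25, adjusted p = 0.0177), Adh1 (1.34 ± 0.26, adjusted p = 0.0491), Ces2a (1.01 ± 0.19, adjusted p = 0.0457) and Cyp2d26 (0.68 ± 0.13, adjusted p = 0.0491).

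Akr1c13, an aldo-keto reductase of hydroxysteroids, read 8.48, 7.89 and 8.84 on Rag1, 9.91, 10.88 and 10.59 on BP and 9.72, 9.43 and 9.68 on wild type. Adh1, the alcohol dehydrogenase that also oxidizes retinol, read 10.34, 10.24 and 9.09 on Rag1, 11.35, 11.65 and 11.53 on BP and 11.31, 10.53 and 11.03 on wild type. Within Rag1, replicate 3 was the low array for Adh1, and wild type replicate 2 came within 0.19 of the highest Rag1 array. Cyp3a11, the main drug-metabolizing cytochrome of the mouse gut and liver, had all 6 arrays above Rag1 and did not pass (1.74 ± 0.38, adjusted p = 0.0691). Gstt3, a glutathione transferase, was the 1 member lower under both conditions (-0.93 ± 0.17, adjusted p = 0.0366), and it was lower mainly in BP (-1.40, against -0.47 in wild type).

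The retinol enzyme Rdh7 was among the 7 higher probe sets more than 1 log2 unit clear of Rag1. It read 9.08, 9.11 and 8.64 on Rag1, 10.31, 10.62 and 10.49 on BP and 10.42, 10.28 and 10.27 on wild type. The 6 arrays stood 1.17 above Rag1 (1.45 ± 0.15, adjusted p = 0.00219). A probe set of Retsat, a retinol saturase, rose by 1.65 ± 0.28 (adjusted p = 0.029), while the brighter Retsat probe set was at 1.1 ± 0.35 and did not pass (adjusted p = 0.195).

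Genes of lipid oxidation had mostly positive and mostly small changes. Of 25 tested genes of fatty acid oxidation and ketogenesis, 20 changes were positive, and the median was 0.20. Wholly above Rag1 were 6 genes and wholly below 1 (over all genes, 2.82% and 3.56%). Acaa1b, a thiolase of peroxisomal beta-oxidation, was the 1 member to meet both conditions (1.72 ± 0.34, adjusted p = 0.0491), with 8.02, 7.45 and 6.45 on Rag1, 9.84, 9.83 and 9.06 on BP and 8.99, 8.33 and 8.10 on wild type. Its lowest wild type array was 0.08 above the highest Rag1 array. Pdk4, the kinase that shuts pyruvate out of the citric acid cycle during lipid use, was wholly above Rag1 at 1.21 ± 0.24 and just missed the threshold (adjusted p = 0.0556). No gene met both conditions among 27 of lipid absorption, 22 of cholesterol synthesis and 10 of ileal bile acid handling.

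Pck1, the gatekeeper enzyme of gluconeogenesis, read 8.60, 8.50 and 8.05 on Rag1, 9.13, 10.28 and 10.36 on BP and 10.47, 10.58 and 10.38 on wild type. BP replicate 1 was the lowest of the 6 and still 0.53 above Rag1 (1.82 ± 0.26, adjusted p = 0.0119). Tm4sf4, a membrane protein of intestine and liver, read 8.51, 7.84 and 8.61 on Rag1, 10.79, 11.04 and 11.17 on BP and 10.40, 9.33 and 10.21 on wild type (2.17 ± 0.25, adjusted p = 0.00435). BP was above wild type on every array for Tm4sf4, a difference that did not pass (wild type minus BP -1.02 ± 0.29, adjusted p = 0.138).

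Dbp, a transcription factor whose RNA cycles with the time of day, had the largest change among the higher shared genes apart from Xist. It read 6.09, 6.83 and 6.14 on Rag1, 8.04, 10.15 and 9.41 on BP and 9.79, 9.13 and 8.99 on wild type, 7.45-fold higher (2.90 ± 0.39, adjusted p = 0.0109). Its other tested probe set had the same sign (1.89 ± 0.29, adjusted p = 0.0187). Stom and Tgm2 were the other single-symbol genes with more than 1 shared probe set. For Tgm2 the shared probe sets were lower (-1.01 and -1.49), but its brightest one was at -0.33 ± 0.29 and did not pass (adjusted p = 0.696). Its remaining tested probe sets were at -0.37 and 0.17, and neither lay beyond Rag1. Among 23 tested clock genes none but Dbp met both conditions, and 2 lay wholly above and 2 wholly below Rag1 (over all genes, 2.82% and 3.56%). The list median relative to Rag1 was 0.27 to 0.46 on wild type arrays and -0.13 to 0.17 on BP arrays. The labels give no time of sampling.

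Some genes of the epithelium were lower. Of 33 tested genes listed under junctions and adhesion, 4 met both conditions downward and 0 upward. Wholly below Rag1 were 6 and above 1 (over all genes, 3.56% and 2.82%), 24 changes were negative, and the median was -0.17. The 4 were Stom, Ptk6, Ceacam20 and Ceacam1, of which Stom is a scaffold protein and Ptk6 a kinase. The list was written with earlier results of these data known, so its count is a description. The brightest probe set of the tight junction gene Cldn3 did not pass (-0.34 ± 0.11, adjusted p = 0.213). Stom, the membrane scaffold protein stomatin, was lower on all 3 of its shared probe sets: -1.40 ± 0.19 (adjusted p = 0.0109), -1.79 ± 0.21 (adjusted p = 0.00501) and -1.83 ± 0.26 (adjusted p = 0.0119). Its brightest probe set read 10.43, 10.94 and 10.39 on Rag1, 9.64, 8.96 and 9.21 on BP and 9.26, 8.94 and 9.12 on wild type, with BP and wild type overlapping. Ceacam20, a carcinoembryonic antigen family receptor of microvilli, read 10.45, 10.61 and 10.38 on Rag1, 8.97, 9.24 and 9.79 on BP and 9.24, 9.20 and 8.70 on wild type (-1.29 ± 0.20, adjusted p = 0.0194).

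Ptk6, a cytoplasmic tyrosine kinase of differentiating enterocytes, read 8.39, 8.34 and 7.88 on Rag1, 7.24, 7.31 and 6.66 on BP and 6.58, 6.47 and 6.57 on wild type (-1.40 ± 0.21, adjusted p = 0.0183). Here the wild type arrays were the lowest, and each was below every BP array. Ceacam1, an adhesion receptor, showed the reverse order: 12.48, 12.61 and 12.40 on Rag1, 11.33, 10.18 and 10.96 on BP and 11.58, 12.07 and 11.71 on wild type (-1.19 ± 0.21, adjusted p = 0.034). Sugar-chain enzymes were lower under both conditions in 2 cases of 31 tested (over all genes, 0.236%). B3gnt7 was at -1.44 ± 0.28 (adjusted p = 0.0491), about equally in BP (-1.41) and wild type (-1.47). St3gal4, a sialyltransferase, was at -1.18 ± 0.21 (adjusted p = 0.0379), mainly in BP (-1.89, against -0.47).

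The median of the goblet cell genes was slightly below Rag1 on all 6 arrays, at -0.26 to -0.25 on BP and -0.21 to -0.17 on wild type. Of 17 tested goblet cell genes, 4 lay wholly below Rag1 (over all genes, 3.56%). None passed the test on its brightest probe set. A dimmer probe set of the mucin Muc13 was among the lower shared ones (-1.60). The brightest Muc13 probe set was at -0.68 ± 0.18, wholly below Rag1, and did not pass (adjusted p = 0.131). Muc2, the mucin that forms the mucus gel, read 12.26, 12.39 and 12.39 on Rag1 and 11.63 to 12.11 on the 6 arrays (-0.45 ± 0.11, adjusted p = 0.0987).

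Axin2, a feedback inhibitor and target of Wnt signalling, read 9.32, 9.25 and 9.54 on Rag1, 8.59, 7.80 and 8.36 on BP and 8.54, 8.47 and 8.28 on wild type (-1.03 ± 0.20, adjusted p = 0.0471). Fgfr2, a fibroblast growth factor receptor, read 10.06, 10.35 and 9.91 on Rag1, 8.79, 7.99 and 8.58 on BP and 8.86, 9.16 and 9.06 on wild type (-1.37 ± 0.20, adjusted p = 0.0136). Both were separated from Rag1 on all 6 arrays on these probe sets, but Axin2 was the only 1 of 21 tested crypt genes beyond Rag1 in either direction. The other tested probe set was at -0.15 for Axin2 (adjusted p = 0.88) and -0.13 for Fgfr2 (adjusted p = 0.887). Neither of these lay beyond Rag1. Cdca4, a cell cycle gene, was lower too, at -2.42 ± 0.47 (adjusted p = 0.0491), with a wide spread within BP (7.93, 5.26 and 7.30). The other 2 tested probe sets of Cdca4 changed by 0.13 and 0.26 and did not pass, and its change was -0.68 (adjusted p = 0.124) when a gene's probe sets were averaged. Of the 33 tested cell cycle genes, 21 had a positive and 12 a negative change (median 0.10). Wholly above Rag1 were 3 and wholly below 1, Cdca4 (over all genes, 2.82% and 3.56%).

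Genes of the lymphocytes that Rag1 mice lack were not among the shared genes, since the BP arrays stayed at the Rag1 level. Igha, the constant region of IgA, read 6.60, 6.69 and 6.56 on Rag1, 7.19, 5.78 and 6.57 on BP and 12.22, 11.32 and 12.63 on wild type. Jchain, which links IgA units, read 4.27, 4.72 and 4.34 on Rag1, 5.19, 5.02 and 4.58 on BP and 10.49, 8.92 and 11.30 on wild type. For both genes the combined mean passed the test (Igha 2.66 ± 0.32, adjusted p = 0.00676; Jchain 3.14 ± 0.41, adjusted p = 0.00993) through the wild type arrays alone, and BP overlapped Rag1. The T cell receptor subunit Cd3e showed the same split, with 5.27 to 5.37 on Rag1, 5.10 to 5.58 on BP and 7.04 to 7.53 on wild type. None of 18 B cell, 12 T cell, 11 cytotoxic and 24 antigen presentation genes tested was beyond Rag1 on all 6 arrays in either direction.

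Sex-linked genes differed between the groups and, within BP, between arrays. Xist read 5.27, 5.27 and 4.50 on Rag1, 5.85, 9.06 and 10.94 on BP and 10.10, 10.39 and 10.58 on wild type (4.47 ± 0.79, adjusted p = 0.0333). The Y-linked gene Kdm5d read 6.48, 6.31 and 6.53 on Rag1, 6.05 on BP replicate 1, and 4.27 to 4.86 on the other 5 arrays. Eif2s3y, also Y-linked and too dim for the filter, was lower on all 6 arrays when no filter was applied (-1.97, adjusted p = 0.0132). The Usp9y probe set went the opposite way, 1.27 ± 0.21 higher (adjusted p = 0.026). All Rag1 arrays thus had low Xist and high Kdm5d, and the 6 arrays had the reverse except for BP replicate 1. On the other 5 arrays a change with the group cannot be told apart from a change with sex, and a part of sex in the shared changes was not tested. BP replicate 1, the only 1 of the 6 arrays with a low Xist signal, had to lie beyond Rag1 for every shared probe set by the rule, so its values show only how far. Its difference from the Rag1 mean was -0.57 for Reg3b, -0.80 for Reg3g, 0.54 for Ifit1, 0.60 for Usp18 and 0.73 for Pck1, against changes over all 6 arrays of -1.53, -1.96, 1.63, 1.68 and 1.82. For Tifa it was -2.61, against -2.84. For others it was larger than over all arrays, such as Saa3 (3.67, against 2.60) and Gsr (-2.98, against -1.79). Over the shared probe sets its median was 1.19 for the 49 higher and -1.44 for the 69 lower ones, against 1.34 and -1.29. These are single-array values with no test. Of 107 shared probe sets with a known chromosome, 4 were X-linked (3.74%), against 2.82% of 22649 tested.

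**Figure D3:**
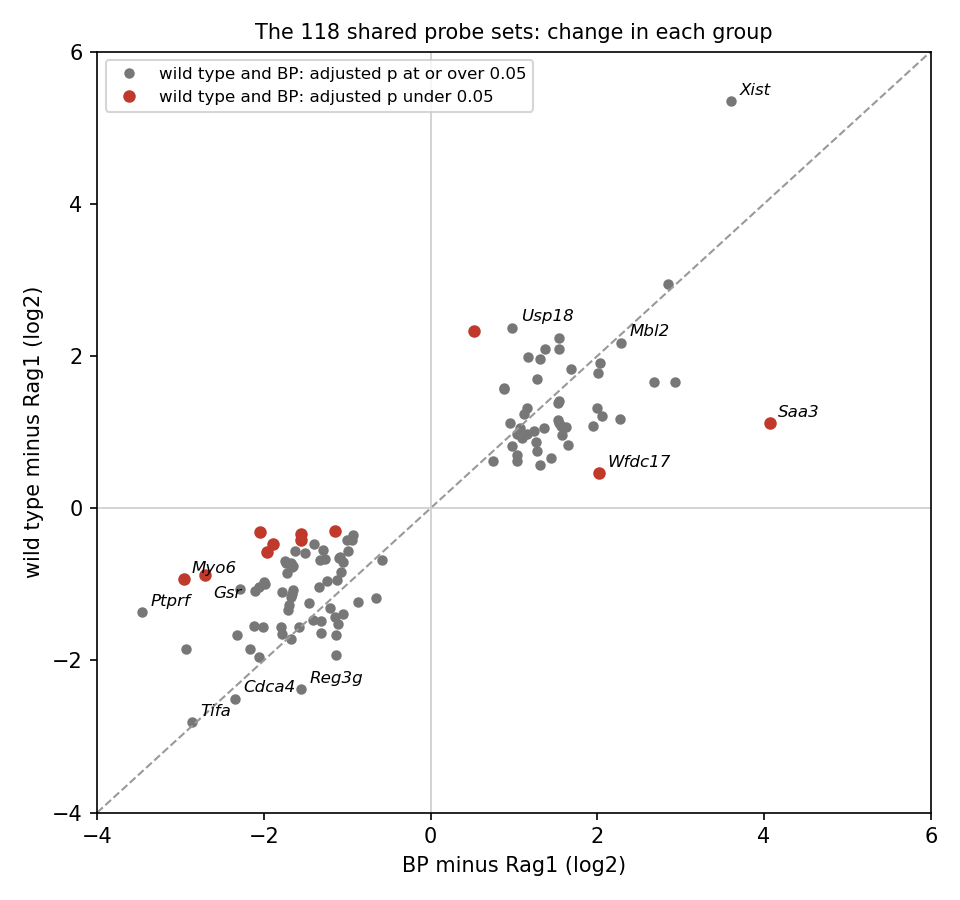
Change of each of the 118 shared probe sets in BP (x axis) and in wild type (y axis) relative to Rag1, both in log2 units and both using the same Rag1 arrays. The dashed line marks equal change, red points differed between wild type and BP, and the lower probe sets lie mostly above the line, where the BP change is the larger.

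The size of the change differed between BP and wild type for some of the shared genes. The wild type minus BP difference passed the test for 3 of the 49 higher and 8 of the 69 lower shared probe sets, against 0.633% of all tested probe sets (0.574% higher and 0.0592% lower in wild type). The genes were chosen with the same arrays and the same estimate of the spread, so these shares are a description. The BP change was the larger in 54 of the 69 lower ones (median -1.62 in BP and -1.04 in wild type) and in 33 of the 49 higher ones (1.44 and 1.17). The 8 lower ones were Tpm1, Cldn3, Ppp1r1b, Pphln1, St3gal4, Slc35a2, Gsr and Myo6, and all 8 were lower in BP than in wild type. The glutathione reductase Gsr read 9.80, 9.63 and 9.60 on Rag1, 6.67, 7.48 and 6.77 on BP and 8.36, 9.38 and 8.66 on wild type. Gsr was thus lowest on BP replicates 1 and 3, intermediate on wild type replicates 1 and 3, and 0.23 below Rag1 on wild type replicate 2. In both groups the array of lowest actin ratio was the one nearest to Rag1.

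Wild type replicate 2, with an actin ratio like Rag1, was the wild type array nearest to Rag1 for 50 of the 69 lower probe sets (72.5%), against 45.5% of all 14508 tested probe sets with a negative change. Among the 49 higher ones it was nearest for 18 (36.7%), against 48.4% of 12514. The share was 83.9% (26 of 31) for lower probe sets that are not the brightest of their gene, and 56.3% (18 of 32) for those that are. BP replicate 2 was the nearest BP array for 24 of the 69 (34.8%), against 39.2%. With only BP replicate 2 and wild type replicate 2 set against Rag1, an alternative chosen after the data were seen in which only the Rag1 arrays give the spread, the median change was 1.38 for the 49 higher ones (1.34 over all arrays) and -1.18 for the 69 lower ones (-1.29). For the 31 lower ones that are not the brightest of their gene the median was -1.11, against -1.49 over all arrays, and for the 32 that are it was -1.23, against -1.19.

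Single genes differed in how far their change moved with the actin ratio. Ptprf, a receptor tyrosine phosphatase, changed by -2.41 over all arrays, -1.25 with the actin ratio as a covariate and -1.30 on the arrays of lowest ratio. Gsr changed by -1.79, -1.28 and -1.23 in the same order, and Hnf4a, a nuclear receptor of gut epithelium, by -1.55, -0.92 and -0.83. The sialyltransferase St3gal4 changed by -1.18, -0.63 and -0.72. Tifa moved little, at -2.84, -2.76 and -2.69. These genes were picked after their values were seen.

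**Figure D4:**
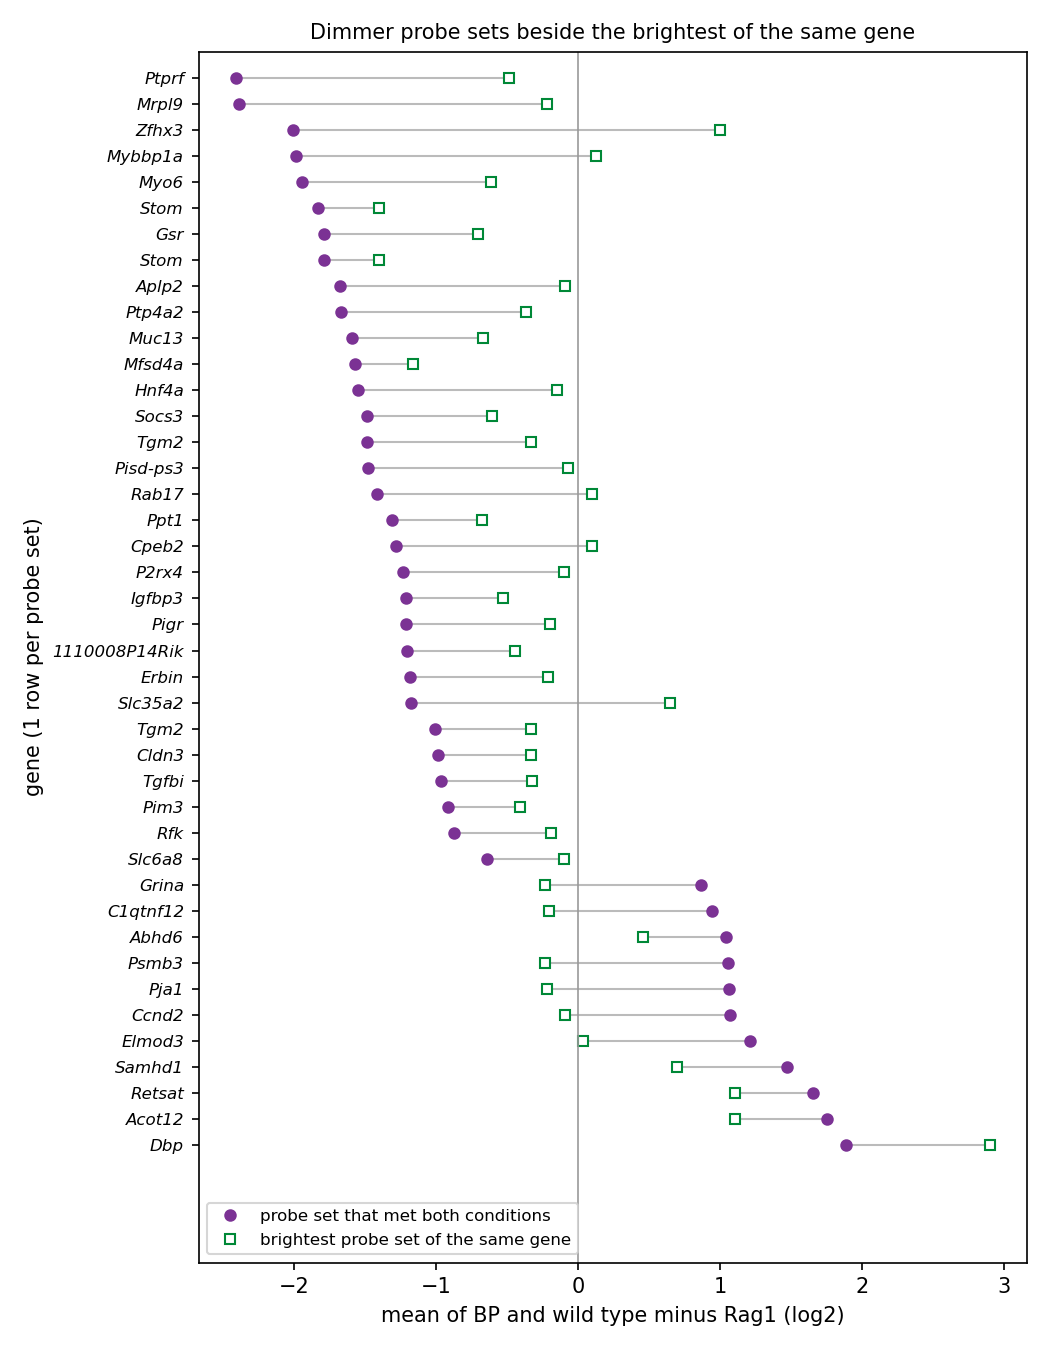
Log2 change of each shared probe set that is not the brightest of its gene (circles) and of that gene's brightest probe set (squares), 1 row per probe set. On the lower side the squares lie nearer to 0 than the circles in every row, and for Zfhx3 and Slc35a2 they lie clearly on the other side of 0. Circles were chosen for meeting both conditions and squares were not, so smaller changes on the squares follow in part from that choice.

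Probe sets of one gene often differed. Of the shared probe sets with a single gene symbol, 31 of 63 lower and 11 of 44 higher ones were not the brightest of their gene, against 40.3% of all 22721 tested. The brightest probe set of the same gene had the same sign for 26 of the 31 and 6 of the 11, but met both conditions only for Stom (2 of the 31) and Dbp (1 of the 11). Its median change was -0.33 and 0.04. Pigr, the receptor that carries IgA across the epithelium, was 1 such gene: its dimmer probe set read 12.01, 12.25 and 11.70 on Rag1, 9.86, 10.52 and 10.35 on BP and 11.50, 11.51 and 10.88 on wild type (-1.22 ± 0.19, adjusted p = 0.0202), while the brightest one did not pass (-0.20 ± 0.12, adjusted p = 0.558). The receptor phosphatase Ptprf went from -2.41 ± 0.43 on the shared probe set to -0.49 ± 0.13 on the brightest, and the enterocyte transcription factor Hnf4a from -1.55 ± 0.30 to -0.15 ± 0.15. The shared probe sets were chosen for meeting both conditions, and the brightest ones were not. Smaller changes on the brightest ones thus follow in part from that choice.

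Zfhx3 had opposite signs, -2.01 ± 0.38 on the shared probe set and 1.00 ± 0.39 on the brightest (adjusted p = 0.295). Dimmer probe sets of Samhd1 (1.47 ± 0.19, adjusted p = 0.00903) and Acot12 (1.75 ± 0.23, adjusted p = 0.00993) stood more than 1 log2 unit above Rag1, with brightest probe sets at 0.70 ± 0.23 and 1.11 ± 0.39 that did not pass. Read in the other direction, the 65 genes whose brightest probe set was shared had 39 further tested probe sets in 23 genes: 30 had the same sign, 11 lay beyond Rag1 the same way, 3 also passed, and 0 of the 9 with the opposite sign lay beyond Rag1. Tifa, Oas1a, Rdh7, Reg3g and Saa3 each had only 1 tested probe set, so no second one could be set beside it.

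How many calls there were depended on single arrays. Leaving out Rag1 replicate 2 left 3 of the 49 and 1 of the 69 shared probe sets called, and leaving out Rag1 replicate 1 left 6 and 2, while leaving out BP replicate 2 kept all 118. Saa3, Oas1a, Rdh7 and Tifa kept an adjusted p under 0.05 in each of the 9 omissions. Taking BP and wild type as 1 group of 6, so that their difference counts as spread, kept 12 of the 49 and 14 of the 69, among them Tifa (adjusted p = 0.0000859), Rdh7 (adjusted p = 0.00823) and Oas1a (adjusted p = 0.0201), but not Saa3 (adjusted p = 0.292). With the actin ratio as a covariate, 47 and 68 were called.

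**Figure D5:**
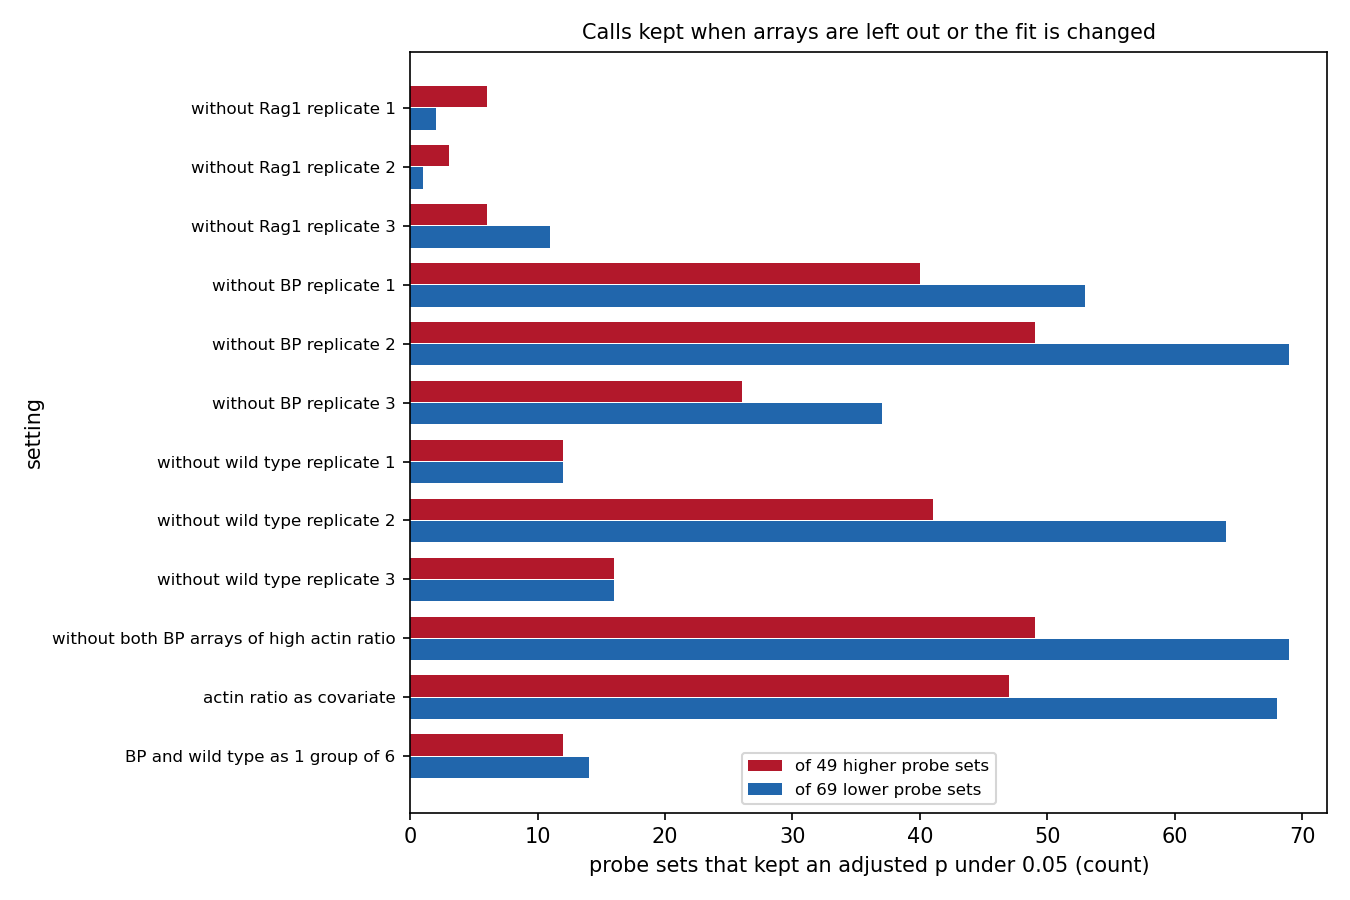
Number of the 49 higher (red) and 69 lower (blue) shared probe sets that kept an adjusted p under 0.05 when an array was left out or the fit was changed. Bars are short when any Rag1 array is left out (at most 6 and 11) and full when BP replicate 2 or both BP arrays of high actin ratio are left out; the probe sets were chosen on all 9 arrays.

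At the edge of the rule, the 6 arrays and Rag1 all but touch. Just inside were Slc45a1 (change -0.21) and Usp47 (-0.70), and just outside were Mrpl23 (0.42) and Tmem86a (0.39), none of which passed the test. Another 19 higher and 20 lower probe sets passed the test without all 6 arrays lying beyond Rag1, Igha and Jchain among them.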

How the data were processed

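Affymetrix arrays of 9 samples, 3 each of Rag1, BP and wild type, grouped by title, were read from the deposited intensity table (45101 probe sets, linear intensities from 1 to 21694). Per the labels' protocols, 20 µg of total RNA went into each biotin labelling. The software and scaling the authors used to compute these intensities are not given in the sources used here. Values were quantile-normalized as log2(intensity + 16). The 64 control probe sets and the lowest 40% by mean were left out, which kept 27022. The number of arrays limits the precision.

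limma 3.58.1 in R 4.3.3 fitted 1 mean per group to all 9 arrays (6 residual degrees of freedom, intensity trend, two-sided, Benjamini-Hochberg over 27022). It was tested on simulated data. The platform annotation gave 1 symbol for 34945 probe sets, several for 932 and none for 9160.

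The members and gene lists were chosen with earlier results of these data known. Named are, per direction, the 15 largest changes and 5 largest gaps among shared genes read by their brightest probe set, up to 4 shared members per list (otherwise up to 2 with the smallest p), genes with several shared probe sets, the 2 genes on each side of the rule's edge, and Rag1, Igha, Jchain, Cd3e, Pigr, Tifa, Reg3g, Reg3b, Nos2, Duoxa2, Dbp, Xist, Eif2s3y and Kdm5d. Not all are printed. Other genes (Irf7, Oasl2, Cyp2d26, Cyp3a11, Pdk4, Nfkb2, Gpx2, Saa1, Saa2, Cldn3, Psmb3) and all dimmer probe sets were named after their values were seen.

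Alternatives were other normalizations, pseudocounts, filters, thresholds, moderation, array weights, a replicate block, gene averages, covariates and left-out arrays.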

Additional observations from a re-analysis of the deposited data

Results flagged for a closer look

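Among the shared probe sets, 11 differed between wild type and BP by limma's test of that difference. The change from Rag1 was larger in BP for 8 lower ones, where wild type minus BP (log2) was 0.84 for Tpm1 (tropomyosin), 1.13 for Cldn3 (a tight junction claudin), 1.21 for Ppp1r1b, 1.39 for Pphln1, 1.42 for St3gal4, 1.73 for Slc35a2 (the UDP-galactose transporter), 1.83 for Gsr and 2.03 for Myo6 (an actin motor of microvilli). The dimmer probe sets of Cldn3, Slc35a2, Gsr and Myo6 are the ones that differed. Of the 3 higher ones, Saa3 (-2.95) and Wfdc17 (-1.56) were higher in BP, and a probe set with several class I major histocompatibility symbols, which names no single gene, was higher in wild type (1.80).

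A further 8 genes described or listed with the shared ones, but not shared themselves, were higher in wild type than in BP. The differences were 5.54 for Igha, 5.31 for Jchain, 2.47 for the lymphocyte chemokine Ccl5, 1.92 for Cd3e, 1.68 for the cytotoxic granule protease Gzmb, 1.66 and 1.64 for the class II genes H2-Ab1 and H2-Aa, and 1.21 for Cd59a, an inhibitor of complement.

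The control probe set for Dap, a bacterial control transcript, had a deposited intensity of 1019 on BP replicate 2 and at most 19.1 on the other 8 arrays.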

How the results depend on the processing

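Counts are probe sets called higher and lower (68 and 89), then those that also had all 6 arrays beyond Rag1 (49 and 69). The counts stayed within 1.5 times under median centring, other pseudocounts and other filters. They were 12 and 14, then 12 and 14, with BP and wild type as 1 group of 6. Without an intensity trend they were 40 and 29, then 28 and 28. With array weights they were 1697 and 2448, then 476 and 687. At an adjusted p under 0.01 they were 16 and 7, then 8 and 6, and for a fold of at least 1.5 they were 11 and 1, then 4 and 1. Averaging a gene's probe sets gave 43 and 49, then 35 and 45. Without normalization between arrays they were 30 and 63, then 17 and 59.

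The counts were 1468 and 1890, then 528 and 726, without both BP arrays of high actin ratio, and 1075 and 1361, then 220 and 300, with the actin ratio as a covariate. With only BP replicate 1 against Rag1 they were 1159 and 2428 under both conditions. With BP replicate 2 and wild type replicate 2 against Rag1, chosen after seeing the data, they were 822 and 1107, then 497 and 754. In these last fits the spread comes from few arrays and a lone array is assumed to vary like the others. Leaving out each array in turn gave 9 to 1315 called higher and 1 to 1733 called lower, then 4 to 710 and 1 to 750. The lowest counts were without Rag1 replicate 2 and the highest without BP replicate 2, and the cause was not tested.

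The replicate numbers did not pair the samples: the correlation of same-numbered arrays was -0.19 to 0.23, over 0.1 in 1 of 9 pairs. With a replicate block 54 were called higher and 87 lower, then 37 and 57.

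Fold changes on this scale understate the change of dim genes, and no detection calls were used. Unadjusted p under 0.05 was reached by 1410 higher and 2133 lower probe sets.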

Other observations

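Outside the groups described above, single genes lay beyond Rag1 on all 6 arrays in several lists without passing the test. Ddit3, a transcription factor of the unfolded protein response, was higher on all 6 arrays (0.73 ± 0.17, limma adjusted p = 0.0846), and Trib1, an immediate early pseudokinase, was lower on all 6 (-1.36 ± 0.29, adjusted p = 0.0655). The smooth muscle myosin Myh11 was not beyond Rag1 (-1.02 ± 0.22, adjusted p = 0.0647): it read 11.01 to 11.14 on Rag1, 9.15 to 9.99 on BP and 10.17 to 11.05 on wild type, where replicate 2 reached the Rag1 range. Of 24 smooth muscle and stroma genes and 22 genes next to Rag1 on its chromosome that were tested, none lay beyond Rag1 on all 6 arrays in either direction.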
